A study of Mus musculus with 10 samples.

Results

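The cytosolic ribosomal protein genes encode the proteins of the ribosomes that translate nuclear-encoded messenger RNA. They were taken as the protein coding rows of the gene table with a symbol of Rpl or Rps and a number, or the symbol Rplp0, Rplp1, Rplp2 or Rpsa. The Rps6k kinase genes and rows named as pseudogenes were left out. Of 54532 rows in the table, 86 met this rule. They comprised 77 genes of the ribosome proper, 46 of the large (60S) subunit and 31 of the small (40S) subunit, here called core members. The other members were 7 paralogs (Rpl3l, Rpl10l, Rpl22l1, Rpl36al, Rpl39l, Rps27l and Rps27rt) and 2 genes related by name, Rpl7l1 and Rps19bp1, the latter encoding a protein that binds Rps19. Fau and Rack1 also encode ribosome components but carry other symbols and are described separately.

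RNA was sequenced by Smart-seq2, a full-length method for small cell numbers, from regulatory T cells (Tregs) of mouse colon. The 5 Tumor libraries came from colon tumours of Apc Min/+ mice that also carried Foxp3 DTR, and the 5 WT libraries from colon of mice with Foxp3 DTR and no Apc allele named. Apc Min is a germline truncating allele present in every cell of these mice, and Foxp3 DTR places a diphtheria toxin receptor, usually with GFP, under control of the Treg gene Foxp3. The animals of both groups were male C57BL/6 mice aged 16 weeks, and cells of both groups were sorted as CD45+CD3+CD4+CD25+GFP+. Whether animals were pooled for a library, and whether toxin was given, is not given in the sources used here, so p-values measure the spread between these libraries.

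The ribosome is built from ribosomal RNAs and a fixed set of proteins, most present in a single copy per particle, so that their genes are usually expressed at related levels. Most of these messenger RNAs begin with a C followed by a run of pyrimidines, the 5′ terminal oligopyrimidine (TOP) motif. Through it mTOR and the RNA-binding protein Larp1 set how strongly they are translated. In T cells, activation is known to raise ribosome production along with cell growth, and ribosomal protein messages are among the most abundant in lymphocytes.

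The choice of members did not use their start sites, which were searched for such a run. RefSeq start windows (GRCm38.p6, 250 bases before to 50 after each start) were matched by symbol for 66 of the 86 members, giving 78 windows. A C at the annotated start followed by at least 4 bases that are each C or T, read on the strand of the gene only, was found in 14 member windows (17.9%). The same letters stood at the start in 2.51% of all 32851 windows of that length. With such a run allowed to begin within 10 bases on either side of the start, the shares were 53.8% of member windows and 30.7% of all windows. The lines below give 20 bases before and 10 bases from the annotated start for 5 members with the run, shown because they include the signalling and reference genes Rps6 and Rps18 and the stalk gene Rplp2, and for 2 paralogs without it. Of 67 core windows 13 had the run, as did the paralog Rps27rt, so these lines do not divide core members from paralogs. Capitals mark the pyrimidine run from the start base.
Rps6, chr4:86857358-86857387, minus strand: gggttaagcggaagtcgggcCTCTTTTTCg
Rps18, chr17:33955656-33955685, minus strand: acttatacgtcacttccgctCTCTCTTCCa
Rplp2, chr7:141447631-141447660, plus strand: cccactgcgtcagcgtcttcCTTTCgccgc
Rps15a, chr7:118116138-118116167, minus strand: gcccactctctttctgccatCTTCCCTCgc
Rpl38, chr11:114668560-114668589, plus strand: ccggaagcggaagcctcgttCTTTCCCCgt
Rps27l, chr9:66946066-66946095, plus strand: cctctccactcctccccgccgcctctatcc
Rpl22l1, chr3:28805488-28805517, plus strand: cgtgcgtgcggcgcaagcccgttctcttcc
In the last 2 windows the annotated start is a G, and pyrimidines follow from the next base. An annotated start can lie a few bases from the start used in a given cell, and these letters are a description of the annotation.

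Library totals ran from 1676229 to 8412887 counts, with 3054435 to 7747699 in Tumor. The members took up 6.75%, 7.0%, 7.30%, 4.63% and 9.17% of all counts in Tumor replicates 1 to 5, a mean of 6.97 ± 1.62% (SD, n = 5). In WT replicates 1 to 5 the shares were 4.47%, 7.85%, 2.20%, 3.65% and 0.738%, a mean of 3.78 ± 2.68% (SD, n = 5). The groups overlapped: WT replicate 2 lay above 4 of the 5 Tumor libraries, and WT replicate 5 held the smallest share of all 10. With counts on protein coding genes as the denominator and mitochondrial genes left out, the means were 8.27 ± 1.85% and 4.84 ± 3.08%. Fewer cells of a type and less RNA per cell cannot be told apart in such bulk libraries.

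The WT libraries also differed among themselves in RNA of other cells. Summed over 12 epithelial genes, WT replicates 1 and 2 held 25184 and 33153 CPM (the usual depth-scaled unit, here on the plain library total), and WT replicates 3 to 5 held 140 to 226 CPM. Tumor libraries held 44.5 to 5253 CPM, with 4 of the 12 genes at 0 in Tumor replicate 2 and 1 at 0 in WT replicate 4. Epcam, the epithelial adhesion gene, was at 0 in no library and ranged from 4.77 to 1812 CPM in WT and from 5.24 to 360 CPM in Tumor. The geometric mean of 12 general T cell genes (such as Cd3d, Cd3e, Lck and Cd28) was 11.9, 33.7, 76.4, 101 and 29.3 CPM in WT replicates 1 to 5 and 263 to 418 CPM in Tumor, and none of the 12 was at 0. Foxp3 itself was at 3.33 to 40.4 CPM in WT and 35.9 to 117 CPM in Tumor. The repeat-rich gene model Gm10800 held 9.92%, 22.3% and 26.5% of counts in WT replicates 3, 4 and 5, against 0.844% to 5.77% in the other libraries. Summed levels of 6 plasma cell genes (50.7 to 3566 CPM in WT, 59.3 to 413 CPM in Tumor, with 1 or 2 of the 6 at 0 in WT replicates 1 and 2 and 1 at 0 in Tumor replicates 2 and 5) and of 8 macrophage genes (33.0 to 149.6 CPM in WT, 1263 to 5842 CPM in Tumor, 2 of the 8 at 0 in WT replicate 3) moved as well. The part of these cells and of the repeat counts in the ribosomal protein levels was not tested.

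The balance of the subunits followed the same division of the WT libraries. Counts on 60S members were 1.15, 1.19, 1.18, 1.16 and 1.19 times those on 40S members in Tumor replicates 1 to 5. The ratio was 1.22 and 1.29 in WT replicates 1 and 2 and 0.969, 1.02 and 1.0 in WT replicates 3, 4 and 5. The 5 Tumor libraries thus lay in a narrow band between the WT libraries with many epithelial counts and those with few.

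**Figure D1:**
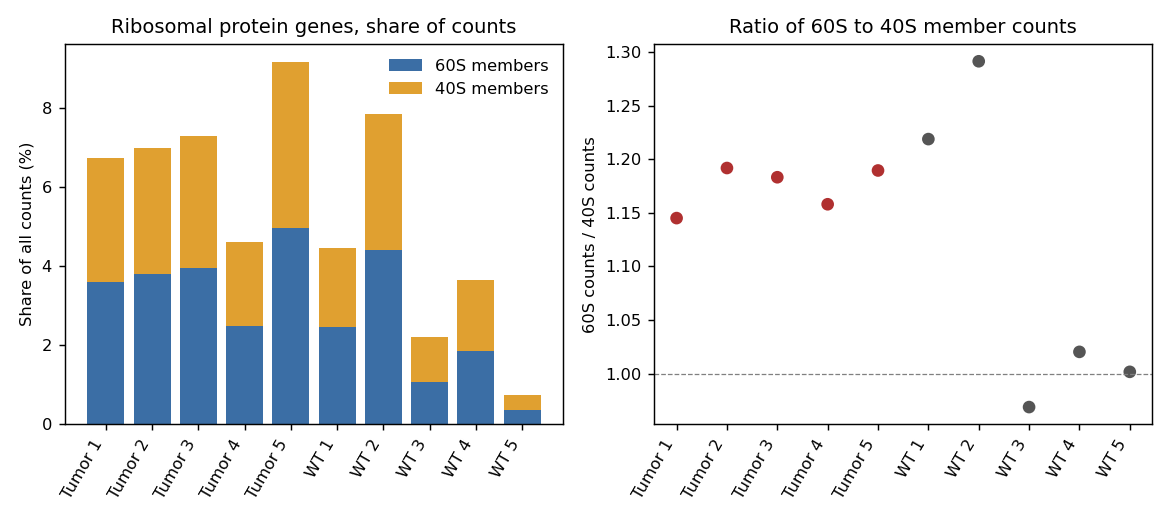
Left, the share of all counts on 60S and 40S ribosomal protein genes (stacked bars, percent) in each library. Right, the ratio of 60S to 40S counts per library as points, red for Tumor and grey for WT, with a dashed line at 1. Shares run from 0.738% in WT replicate 5 to 9.17% in Tumor replicate 5, and the 5 Tumor ratios lie between 1.15 and 1.19.

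The counts behind the members differed between libraries. The median count per member was 2270.5 to 6126 in Tumor, 2658 and 6767 in WT replicates 1 and 2, 364.5 and 874 in WT replicates 3 and 4, and 106.5 in WT replicate 5. Core members with under 10 counts numbered 4 in WT replicate 5, 2 in WT replicate 3, 1 each in WT replicate 4 and Tumor replicates 1, 2, 4 and 5, and 0 in the other libraries. Levels below are CPM after trimmed mean of M values (TMM) scaling, which adjusts library totals for composition, and levels are ranked between genes per kilobase of annotated gene length unless another length is named. In Tumor, Rplp1 stood highest at 5001 CPM per kilobase, followed by Rpl41 (2465), Rpl36 (2374), Rps15 (1941) and Rps27 (1868). Rplp1 encodes an acidic protein of the ribosomal stalk, and Rpl41 a very short peptide on the surface between the subunits. The order depended on the length used: per kilobase of the main GENCODE transcript, Rps27 came first at 5648, ahead of Rplp1 (5001) and Rpl41 (4946). The order of the 77 core members was nearly the same in both groups (Spearman rho 0.98 across the 77 genes, which share libraries and lengths).

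Most core members moved together from library to library. Of the 77, 73 had their lowest CPM of all 10 libraries in WT replicate 5. Within Tumor, 69 of the 77 were lowest in replicate 4, and within WT, 70 of the 77 were highest in replicate 2. The coefficient of variation between libraries had a median over core members of 26.8% in Tumor and 82.3% in WT. As a share of all ribosomal protein counts, which removes the common movement, it was 15.4% in Tumor and 32.2% in WT. The tightest shares in Tumor were those of Rps9, Rpl22 and Rpl32, with coefficients of 5.17%, 5.50% and 6.19%. Across the 77 core members, pairs of Tumor libraries had Spearman correlations of 0.89 to 0.97, and pairs of WT libraries 0.53 to 0.91. Pairs of a Tumor and a WT library had 0.58 to 0.93, so the WT libraries resembled one another less (median 0.75) than they resembled the Tumor libraries (median 0.86).

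**Figure D2:**
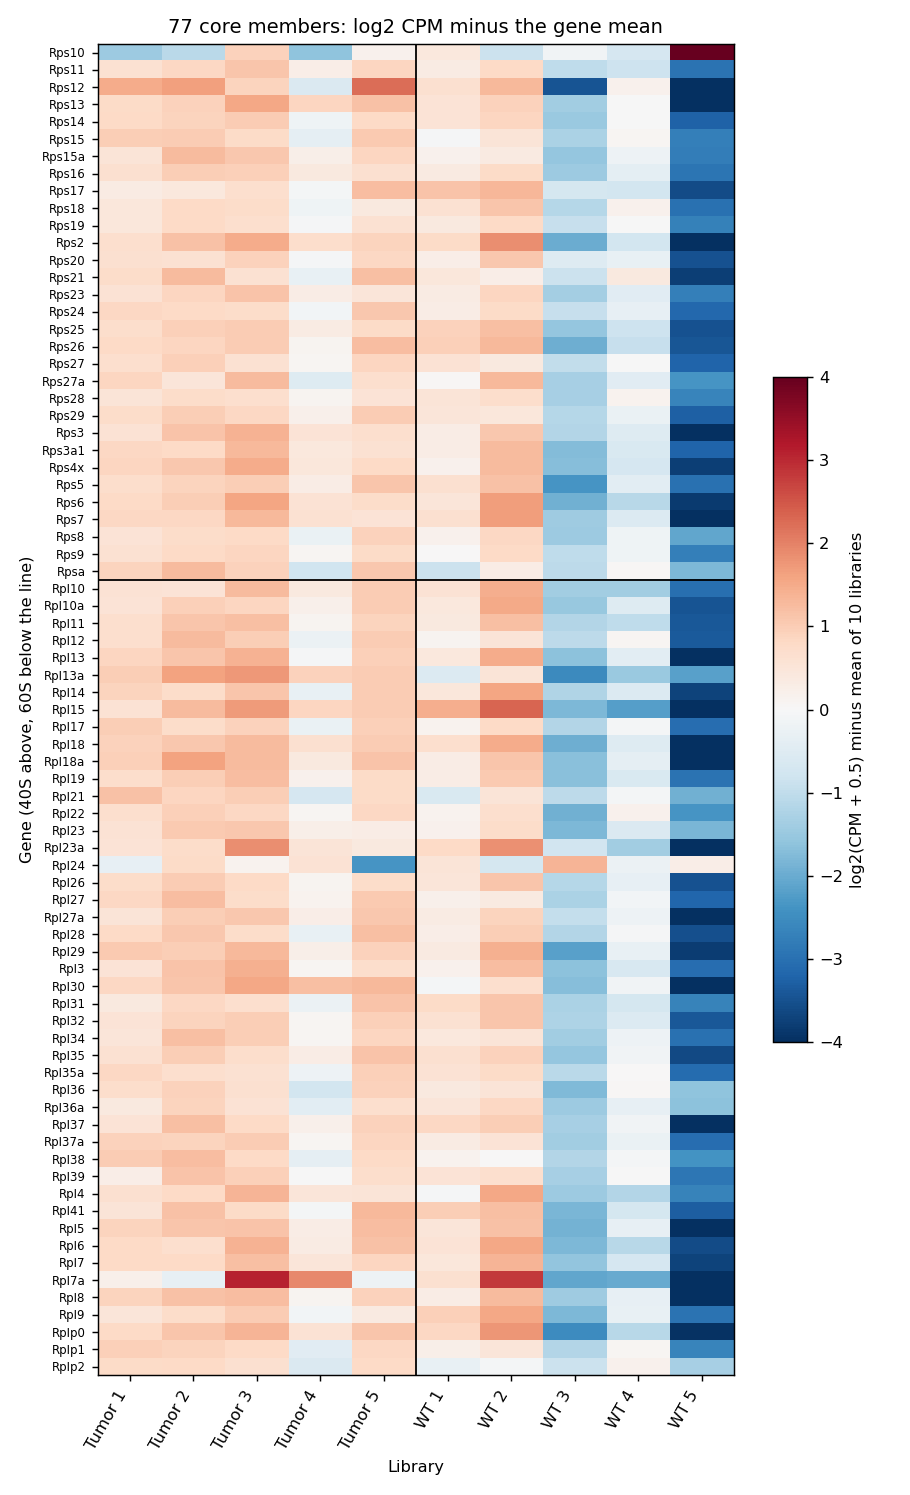
Each row is a core member and each column a library; colour gives log2(CPM + 0.5) minus the mean of that gene over the 10 libraries, red above and blue below. The column of WT replicate 5 is the lowest for 73 of the 77 genes, while Rps10 is highest there, at 72.6 CPM, and Rpl24 and Rpl7a depart from the common pattern.

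Setting Tumor against WT addresses whether ribosomal protein messages differ between Tregs from Apc Min/+ tumours and Tregs from colon without that allele. Of the 86 members, 82 passed the filter on low counts and 4 paralogs (Rpl3l, Rpl10l, Rpl36al and Rpl39l) did not. None of the 82 was called (0 of 82, edgeR quasi-likelihood fit, p adjusted by Benjamini-Hochberg and set against 0.05), where 1.59% of all 21414 tested genes were called, 1.37% higher and 0.219% lower in Tumor. Other tools called few members higher: DESeq2 1 (3.29% of all genes), limma voom 0 (2.12%) and voom with quality weights 1 (3.13%). At an unadjusted p below 0.05 there were 3 members, against 16.1% of all tested genes: Rpl13a and Rpl30 on the higher side (7.75% of all genes) and Rps10 on the lower side (8.31%). In Rpl13a and Rpl30, 2 of the 82, every Tumor library exceeded every WT library, against 4.38% of all tested genes, and in 0 of 82 every Tumor library was below, against 1.57%. The log2 fold change (Tumor over WT) was above 0 for 78 of the 82 on TMM scaling, against 43.8% of all tested genes. Scaled to the summed ribosomal protein counts, which are the members' own, it was above 0 for 45 of 82, against 2007 of all 21414 genes. With each library scaled to its 12 general T cell genes it was above 0 for 0 of 82, against 183 of the 21414. The median log2 fold change was 0.86 over the 82 members, 0.87 over the 46 core 60S genes and 0.87 over the 31 core 40S genes, against -0.20 over all tested genes. The spread between libraries was wide: the standard error had a median of 0.76 over core members.

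These values depended on the scaling and on which WT libraries entered. Scaled to the 12 general T cell genes, the member median was -2.69 and that of all tested genes -3.60, and 54 of the 82 members were called lower, against 90.6% of all genes. Scaled to the summed ribosomal protein counts, the member median was 0.046, that of all tested genes was -2.10, and 1 member was called lower, against 11.2% of all genes. That scaling uses the members' own counts, so a small member median is built into it. Without WT replicates 1 and 2, the 2 libraries with high epithelial counts, the member median was 1.95 (all genes -0.17) and 18 of 83 tested members were called higher, against 6.4% of all genes. Every Tumor library then exceeded the 3 remaining WT libraries in 57 of 82 members, against 14.3% of all genes. Without WT replicates 3, 4 and 5 the member median was -0.025 (all genes 0.013), 0 members were called higher (2.32% of all genes) and 1, Rps27l, was called lower (2.09%). Every Tumor library exceeded WT replicates 1 and 2 in 2 of 82 members, against 8.92% of all genes. Without WT replicate 2 alone, the member median was 1.44 and 1 member was called higher, against 1.49% of all genes, and with the replicate number as a block 0 were, against 0.644%. The group difference thus moved with the choice of WT libraries. WT replicates 3 to 5, against which it was large, also lay below every Tumor library in the 12 T cell genes, as did WT replicates 1 and 2.

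**Figure D3:**
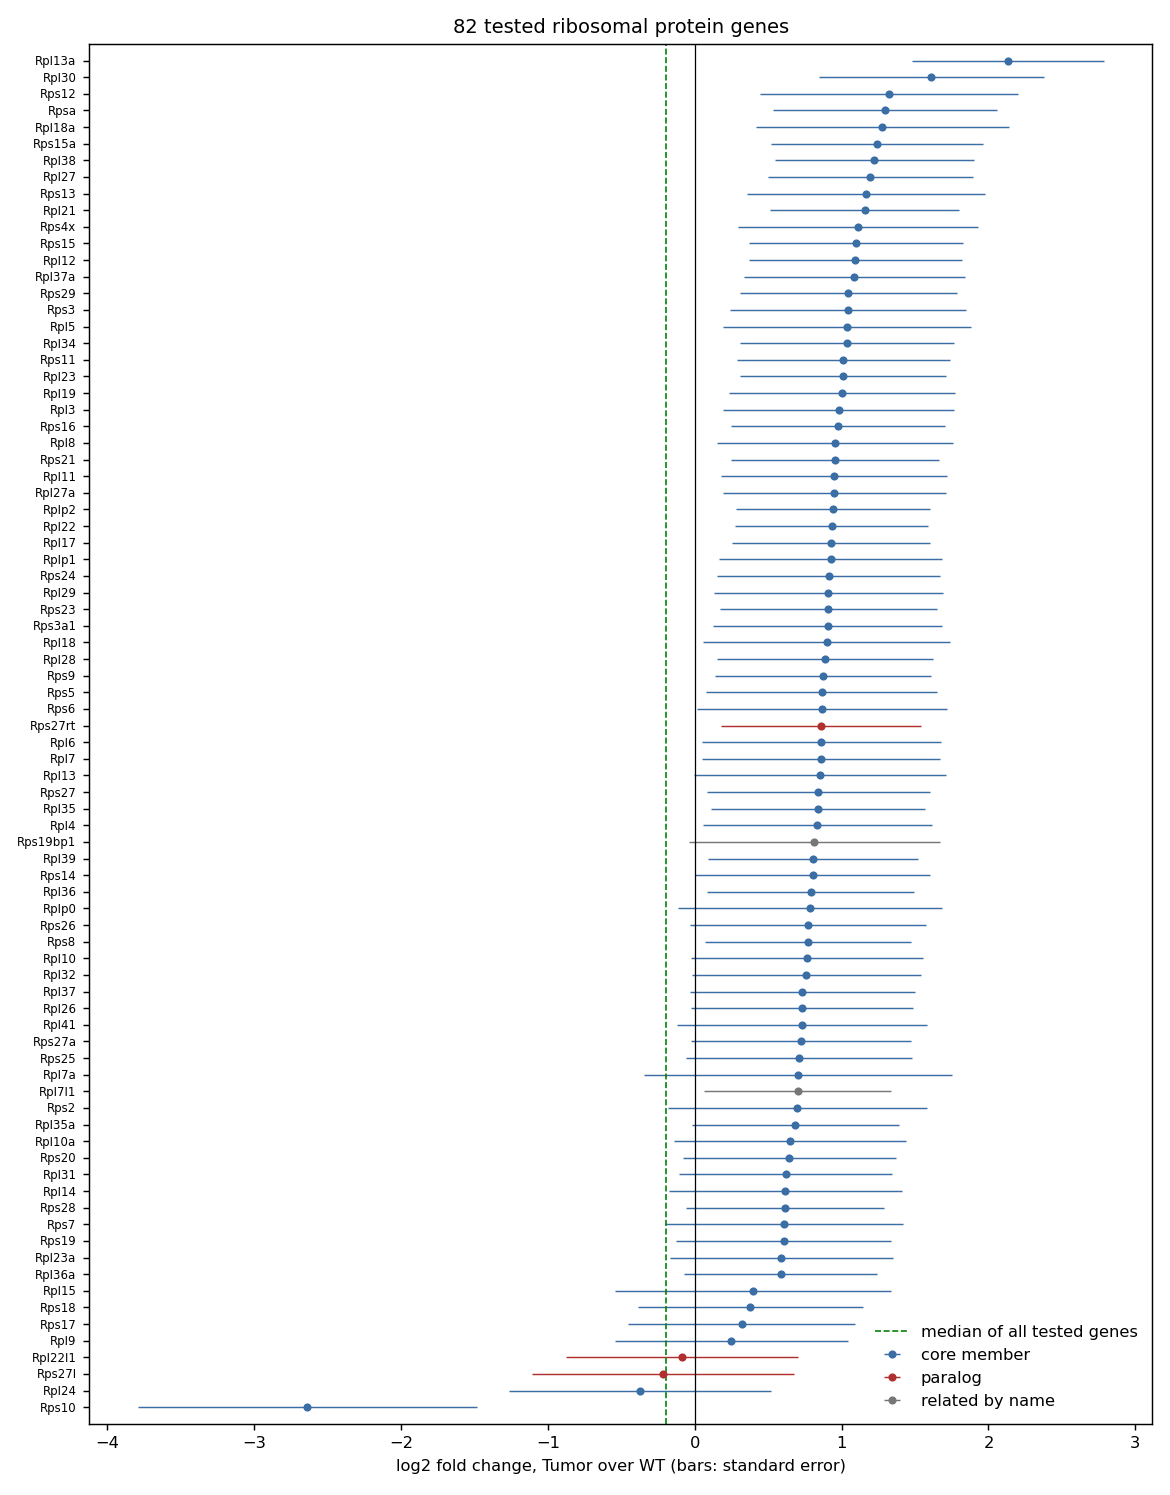
Log2 fold change of Tumor over WT on TMM scaling for the 82 tested members (points) with its standard error (bars), sorted by size; blue marks core members, red paralogs and grey genes related by name. A solid line marks 0 and a dashed green line the median of all tested genes, -0.20. Most points lie near the member median of 0.86. With each library scaled to its 12 general T cell genes all 82 are negative (median -2.69), and the median of all tested genes is -3.60.

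Among 60S genes, Rpl13a had the largest log2 fold change. It encodes a large-subunit protein also known as part of an interferon-gamma-dependent translational silencing complex (ENSMUSG00000074129, mm10 chromosome 7, 45125558 to 45128761). It stood at 32.6, 51.0, 55.2, 30.9 and 33.3 CPM in Tumor replicates 1 to 5, and at 11.0, 23.2, 2.35, 5.46 and 3.18 CPM in WT replicates 1 to 5. The groups did not overlap, and WT replicates 1 and 2 lay closest to Tumor. The values of WT replicates 3, 4 and 5 rest on 5, 15 and 7 counts. The log2 fold change was 2.13 ± 0.65 (SE), with adjusted p = 0.115 in the edgeR quasi-likelihood test after Benjamini-Hochberg adjustment. Rpl13a was called higher by DESeq2 (2.04 ± 0.64, adjusted p = 0.0256), by limma voom with quality weights (2.50 ± 0.69, adjusted p = 0.0480) by edgeR without WT replicate 2 (2.92 ± 0.67, adjusted p = 0.0314) and, among 18 members, without WT replicates 1 and 2 (3.46 ± 0.76, adjusted p = 0.00884), and scaled to the T cell genes its value was -1.43. On the same strand, 35.4% of its exon bases are shared with other annotated genes. The gene sharing most of its 100-base stretches, Gm45713, was listed at 0 counts in all 10 libraries.

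Rpl30 encodes a 60S protein near the subunit interface (ENSMUSG00000058600, chromosome 15, 34440505 to 34443640). It was at 386, 471, 633, 505 and 535 CPM in Tumor and at 209, 345, 66.7, 198 and 7.71 CPM in WT. The groups did not overlap, with Tumor replicate 1 and WT replicate 2 nearest to each other. Its log2 fold change of 1.61 ± 0.77 did not pass (adjusted p = 0.308, edgeR, Benjamini-Hochberg), and it was -1.81 on the T cell scaling.

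The stalk genes Rplp0, Rplp1 and Rplp2 encode the proteins that recruit translation factors to the 60S subunit. Rplp0 was at 1645, 2056, 2445, 1423 and 2032 CPM in Tumor and at 1701, 3201, 166, 440 and 61.2 CPM in WT, so WT replicate 2 was the highest of all libraries and WT replicates 3 to 5 were below every Tumor library. Rplp2 spread less, with 1211, 1222, 1092, 470 and 1220 CPM in Tumor and 573, 674, 385, 798 and 280 CPM in WT. Both genes overlapped between the groups. The log2 fold changes of Rplp0, Rplp1 and Rplp2 were 0.79 ± 0.90, 0.92 ± 0.76 and 0.94 ± 0.66 (SE), with adjusted p = 0.687, 0.560 and 0.487 (edgeR, Benjamini-Hochberg). As a share of ribosomal protein counts, Rplp0 made up 2.84% and 3.51% in WT replicates 1 and 2, 0.957%, 1.22% and 1.05% in the other WT libraries, while Tumor libraries held 2.22% to 2.99%. Rplp2 went the other way, at 0.958% and 0.738% in WT replicates 1 and 2, 2.22%, 2.22% and 4.82% in the other WT libraries, while Tumor libraries held 0.987% to 1.64%. The stalk genes therefore differed in proportion between WT libraries of 1 label. Without WT replicates 1 and 2, Rplp0 was called higher (3.09 ± 0.80, adjusted p = 0.0192, edgeR).

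Several 60S genes had wider ranges than the rest. Rpl7a, a core 60S gene, was at 27.3, 18.6, 200.5, 89.5 and 20.2 CPM in Tumor and 37.0, 169, 5.16, 5.46 and 0.907 CPM in WT. Tumor replicate 3 and WT replicate 2, the libraries with the largest totals, held most of it. Rpl15 was at 251 to 553 CPM in Tumor, at 469 and 857 CPM in WT replicates 1 and 2 and at 48.4, 36.4 and 4.08 CPM in WT replicates 3 to 5. Among the 18 members called without WT replicates 1 and 2, Rpl7a and Rpl15 had the largest log2 fold changes, 4.19 ± 0.91 and 3.65 ± 0.76 (edgeR, adjusted p = 0.00874 and 0.00665). On all 10 libraries their values were 0.70 ± 1.05 and 0.40 ± 0.94.

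Among 40S genes, Rpsa had the largest log2 fold change after Rps12. It encodes the 40S protein SA, also known as the laminin receptor precursor (ENSMUSG00000032518, chromosome 9, 120127689 to 120132369). Tumor replicates 1 to 5 held 4210, 5350, 4257, 1284 and 4738 CPM, and WT replicates 1 to 5 held 1237, 2788, 1090, 2309 and 651 CPM. Tumor replicate 4 lay within the WT range and the other Tumor libraries lay above it. The log2 fold change was 1.30 ± 0.76 (adjusted p = 0.406, edgeR, Benjamini-Hochberg). Within the ribosomal protein counts its share ran from 2.07% in WT replicate 1 to 11.2% in WT replicate 5. Of 298 rows named as ribosomal protein pseudogenes, 78 were tested and 1 was called, against 1.59% of all tested genes. This was the Rpsa copy Rpsa-ps2, named here after its values were seen. It was at 39.0 to 132 CPM in Tumor and 12.7 to 34.6 CPM in WT, a log2 fold change of 2.11 ± 0.53 (adjusted p = 0.0488, edgeR). No pseudogene row was called without any 1 of Tumor replicates 1 to 5 or of WT replicates 1, 3 and 5, and 0 were called under RLE, upper-quartile or library-total scaling or either voom fit. On the T cell scaling 67 of the 78 were called lower, against 90.6% of all tested genes, and 0 higher, against 0.0887%.

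Rps6 encodes the 40S protein phosphorylated by S6 kinase downstream of mTOR (ENSMUSG00000028495, chromosome 4, 86854660 to 86857412). It was at 1011, 1145, 1706, 855 and 969 CPM in Tumor and at 806, 1857, 151, 267 and 40.4 CPM in WT. WT replicate 2 was the highest library of either group. Rps6 had a log2 fold change of 0.86 ± 0.85 (adjusted p = 0.629, edgeR), -2.74 on the T cell scaling and 2.88 ± 0.75 (adjusted p = 0.0207) without WT replicates 1 and 2. Rps18, often used as a reference gene in quantitative PCR, was at 860 to 1692 CPM in Tumor and at 1493, 2075, 442, 1089 and 122 CPM in WT, a log2 fold change of 0.38 ± 0.77 (adjusted p = 0.836, edgeR). Its levels spanned a wide range inside the WT group alone.

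Rps12 had the third largest log2 fold change, 1.32 ± 0.88 (adjusted p = 0.462, edgeR, Benjamini-Hochberg). It was at 437, 489, 295, 106 and 751 CPM in Tumor and 244, 387, 14.1, 178 and 7.26 CPM in WT. The Tumor values alone had a coefficient of variation of 57.5%, the widest among the 72 core members with at least 100 CPM on average in Tumor. Rps15 and Rpl36, among the highest per kilobase, had log2 fold changes of 1.10 ± 0.73 and 0.79 ± 0.70, and Rpl41 and Rps27 of 0.73 ± 0.85 and 0.84 ± 0.76. For these 4 genes the adjusted p was 0.463 to 0.691, and the groups overlapped.

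The 5 lowest of the 77 core members in Tumor were Rps10, Rpl24, Rpl13a, Rpl7a and Rpl23a, at 1.12, 4.53, 19.2, 39.98 and 95.6 CPM per kilobase, and the next lowest was Rpl22 at 109. Rps10, a 40S gene whose protein is ubiquitinated when ribosomes collide (ENSMUSG00000052146, chromosome 17, 27630418 to 27636669), was at 0.843, 1.24, 6.49, 0.71 and 3.67 CPM in Tumor. In WT replicates 1 to 5 it was at 4.45, 1.52, 2.82, 1.82 and 72.6 CPM. WT replicate 5, the library with the fewest ribosomal protein counts, was thus the only one above 6.49 CPM. Its log2 fold change of -2.64 ± 1.15 did not pass (adjusted p = 0.270, edgeR), and without WT replicate 5 it was -0.0072 ± 1.08. Scaled to the ribosomal protein counts it was called lower (-6.29 ± 1.69, adjusted p = 0.0492).

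Rpl24, a 60S gene (ENSMUSG00000098274, chromosome 16, 55966275 to 55971435), was at 3.37, 7.87, 4.87, 6.74 and 0.459 CPM in Tumor and 6.55, 2.49, 12.2, 3.64 and 5.44 CPM in WT. Its log2 fold change was -0.37 ± 0.89 (adjusted p = 0.862, edgeR). The annotation gives a fact shared by 3 of these low genes. Same-strand exon overlap with other genes covers 47.0% of the exon bases of Rpl24, 35.4% of Rpl13a and 20.6% of Rps10. These are the 3 core members above 20%. The paralog Rpl36al, at 24.5%, had 0 to 6 counts per library. The genes sharing most 100-base stretches with these 4 members are Gm28037, Gm45713, RPS10-NUDT3 and Gm49383 in turn. Those 4 rows were listed at 0 in all 10 libraries. Of the 77 core members, 50 have no same-strand overlap. Across the 77, same-strand overlap and the Tumor level per kilobase had a Spearman rho of -0.19. Rpl23a overlaps another gene over 62.3% of its exon bases when both strands are counted, and 2.60% on its own strand. Rpl7a overlaps over 8.14%, and shares 50-base stretches with 123 other genes. How reads that fit more than 1 gene were counted is not given in the sources used here, and the part of overlap in these low counts was not tested.

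**Figure D4:**
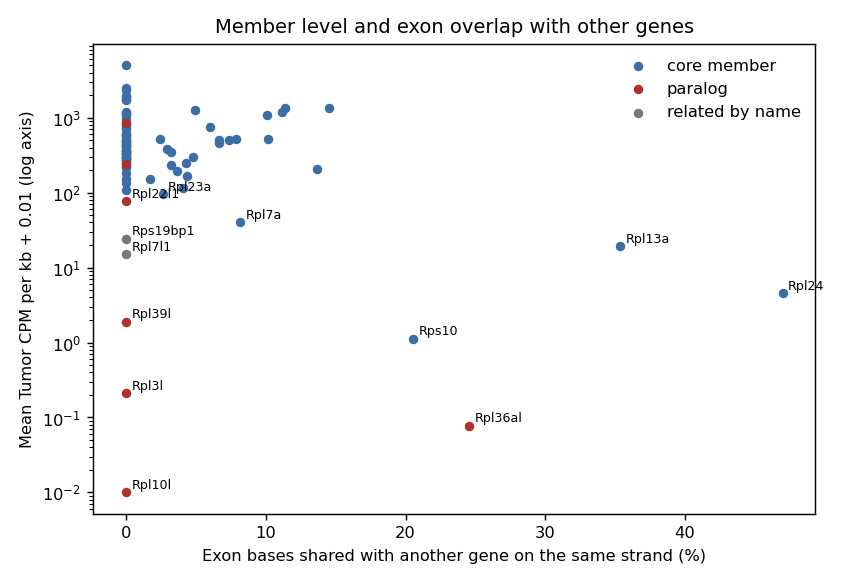
Mean Tumor level of each member (CPM per kilobase plus 0.01, log axis) against the percent of its exon bases shared with another gene on the same strand in GENCODE M21. Rpl24, Rpl13a and Rps10, at 47.0%, 35.4% and 20.6%, are the core members above 20% and lie under 20 CPM per kilobase, below most members with no overlap. Rpl7a and Rpl23a, the next lowest core members, overlap over 8.14% and 2.60%.

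Nearly all members share sequence with other annotated genes, both copies elsewhere and genes that overlap the member in place. In a core member, a median of 35.8% of the 100-base stretches of its main transcript also occurred in another annotated gene. For 50-base stretches the median was 51.7%. Either strand was counted, and overlapping neighbours were not set apart from copies. For Rpl35 the gene sharing most 100-base stretches was Wdr38 (52.3%), and 66.2% of Rpl35 exon bases overlap another gene on either strand. In 30 of the 77 core members the 100-base share was at least 50%, and 4 shared no 100-base stretch. Counts on rows named as ribosomal protein pseudogenes came to 4.38% to 5.58% of member counts in Tumor, and to 4.54%, 4.53%, 8.21%, 5.13% and 14.3% in WT replicates 1 to 5. The share was highest in the library with the lowest member counts. Across the 77 core members, the 100-base share and the log2 fold change had a Spearman rho of -0.25, and the 100-base share and the Tumor level per kilobase one of -0.20, over genes that share libraries.

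The paralogs are read against their partners, and sequence decides which can be told apart. Rps27 encodes a 40S protein with a zinc finger. Rps27l is a p53-responsive paralog, and Rps27rt is a retrotransposed copy with an open frame. Over all 255 coding bases Rps27rt differs from Rps27 at 0 bases and Rps27l at 61 (76.1% identity). The lines below give coding bases 1 to 90 from GENCODE M21 transcripts, shown because they explain which rows can share reads; capitals in Rps27l mark the 24 bases in this stretch that differ from Rps27. Rps27 lies at chr3:90212522-90213651 (minus strand), Rps27rt at chr9:114982366-114982739 (minus strand) and Rps27l at chr9:66946086-66949516 (plus strand), in mm10.
Rps27: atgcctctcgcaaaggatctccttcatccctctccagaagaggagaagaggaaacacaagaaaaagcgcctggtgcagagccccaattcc
Rps27rt: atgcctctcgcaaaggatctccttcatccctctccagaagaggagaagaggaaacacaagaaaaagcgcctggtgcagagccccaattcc
Rps27l: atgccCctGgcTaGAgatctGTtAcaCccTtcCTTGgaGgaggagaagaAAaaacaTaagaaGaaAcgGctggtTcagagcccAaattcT
The counts on Rps27rt and Rps27 are therefore uncertain: 98.4% of the 100-base stretches of Rps27 also occur in Rps27rt. Per kilobase, Rps27rt stood at 45.8 ± 5.91% of Rps27 in Tumor and 42.2 ± 7.25% in WT (SD, n = 5 each). This ratio was steadier than those of Rps27l and Rpl22l1 to their partners. The lengths used were annotated gene lengths, 374 bases for Rps27rt and 1043 for Rps27. The main transcripts have 374 and 345 bases, so these percentages would be lower per kilobase of main transcript.

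Rps27l shares no 100-base stretch with another gene. It was at 127, 192, 247, 155 and 278 CPM in Tumor and at 550, 530, 42.7, 32.8 and 4.54 CPM in WT. WT replicates 1 and 2 lay above every Tumor library, and WT replicates 3 to 5 below. As a percentage of Rps27 per kilobase of annotated gene length it was 8.23, 10.3, 17.0, 15.3 and 15.9 in Tumor. It was 38.0 and 42.0 in WT replicates 1 and 2, and 8.76, 3.43 and 4.33 in WT replicates 3 to 5. On all libraries the log2 fold change was -0.22 ± 0.89 (adjusted p = 0.924, edgeR, Benjamini-Hochberg). Without WT replicates 1 and 2 it was called higher (2.90 ± 0.69, adjusted p = 0.0128) and without WT replicates 3, 4 and 5 lower (-1.44 ± 0.40, adjusted p = 0.0298). The direction thus turned with the WT libraries used. Epithelial counts were highest in WT replicates 1 and 2, where Rps27l was highest. Tumor replicate 2, with the lowest summed epithelial level (44.5 CPM), held Rps27l at 192 CPM, above WT replicates 3 to 5. Whether epithelial RNA had a part in the Rps27l levels was not tested.

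Rpl22l1 is a paralog of Rpl22, a 60S gene needed for development of alpha-beta T cells. Rpl22l1 was at 119, 127, 214, 136 and 167 CPM in Tumor and at 265, 460, 46.5, 30.2 and 9.53 CPM in WT. Rpl22 was at 309, 375, 343, 206 and 350 CPM in Tumor and at 214, 308, 50.7, 218 and 37.6 CPM in WT. Rpl22l1 reached 181% and 219% of Rpl22 per kilobase in WT replicates 1 and 2, and 134%, 20.2% and 37.0% in WT replicates 3 to 5. In Tumor the ratio was 49.7% to 97.0%, a mean of 72.9 ± 20.9% (SD, n = 5), inside the WT range. The lengths used were annotated gene lengths, 1989 bases for Rpl22l1 and 2911 for Rpl22. The main transcripts have 552 and 2051 bases, so every percentage would be higher per kilobase of main transcript. Whether Rpl22l1 exceeded Rpl22 can therefore depend on the length used, while the order of the libraries does not. The log2 fold changes were -0.087 ± 0.79 for Rpl22l1 and 0.93 ± 0.66 for Rpl22 (adjusted p = 0.967 and 0.491, edgeR). Rpl22l1 was called higher without WT replicates 1 and 2 (2.42 ± 0.61, adjusted p = 0.0169). Whether the epithelial counts account for these ratios was not tested.

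**Figure D5:**
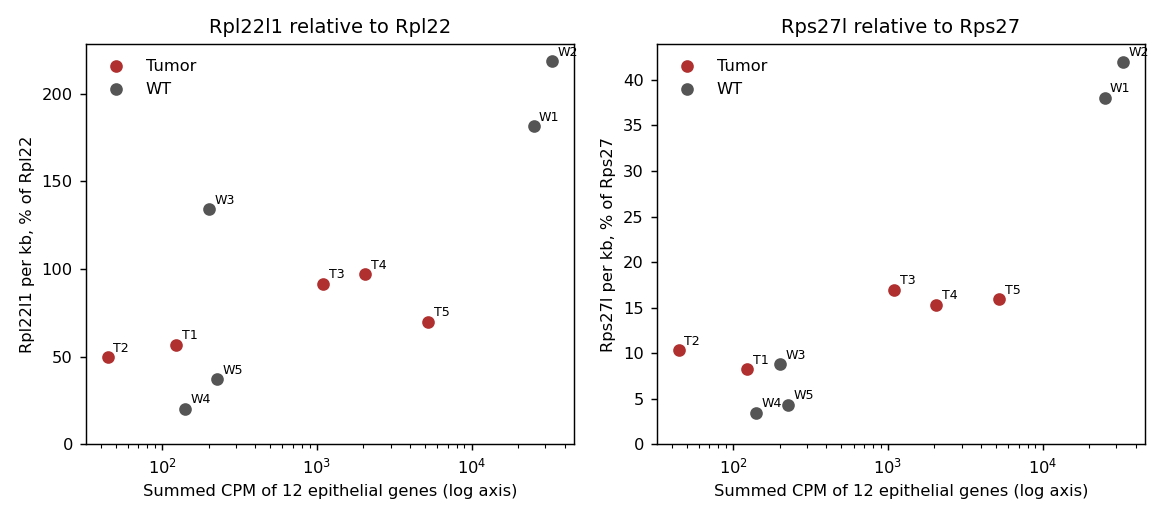
Level per kilobase of Rpl22l1 as a percentage of Rpl22 (left) and of Rps27l as a percentage of Rps27 (right) in each library, against the summed CPM of 12 epithelial genes (log axis); T1 to T5 are Tumor and W1 to W5 are WT replicates. WT replicates 1 and 2 stand apart at 181% and 219% on the left and at 38.0% and 42.0% on the right. Lengths are annotated gene lengths, and other lengths would change the percentages but not the order of the libraries.

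The other paralogs had few counts. Rpl3l, the heart and skeletal muscle form of Rpl3, had 1, 0, 7, 0 and 1 counts in Tumor replicates 1 to 5 and 14, 29, 20, 25 and 14 counts in WT. All WT libraries lay above all Tumor libraries. In the fit with no filter its log2 fold change was -3.90 ± 1.49 (adjusted p = 0.158, edgeR). Rpl3 itself was at 704 to 1803 CPM in Tumor. Rpl39l, known from testis, had 44 counts in Tumor replicate 3 and 0 to 4 in the other libraries. Rpl10l, also known from testis, had 0 counts in Tumor and 6 in WT in all. The genes related by name had log2 fold changes near the members' median, 0.70 ± 0.63 for Rpl7l1 and 0.82 ± 0.86 for Rps19bp1 (adjusted p = 0.599 and 0.656, edgeR).

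Other genes of the translation machinery were read from lists chosen for their roles. Of 22 other genes with TOP messages, such as elongation and initiation factors, 22 were tested and 0 were called (1 at an unadjusted p below 0.05), with a median log2 fold change of 0.97. DESeq2 and limma voom also called 0 of them, and voom with quality weights 1. Without WT replicates 1 and 2, 11 of the 22 were called higher (median 2.15), against 6.4% of all genes. The median was 1.58 without WT replicate 2 alone and 0.073 without WT replicates 3, 4 and 5. Tpt1, a translationally controlled growth protein and one of the most abundant TOP messages, was at 2198, 2112, 2662, 1971 and 1919 CPM in Tumor and at 1205, 1852, 516, 854 and 147 CPM in WT. The groups did not overlap, and the log2 fold change was 1.25 ± 0.76 (adjusted p = 0.422, edgeR). Hnrnpa1, a splicing factor gene, had a log2 fold change of 1.32 ± 0.60 (adjusted p = 0.287), and Eif3e, a subunit of initiation factor 3, of 1.20 ± 0.69 (adjusted p = 0.393). Fau and Rack1, the 40S genes with other symbols, were at 1.16 ± 0.76 and 1.06 ± 0.81 (adjusted p = 0.455 and 0.525).

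Of 38 ribosome biogenesis genes 0 were called (2 at an unadjusted p below 0.05), with a median log2 fold change of 0.75, and DESeq2 and both voom fits also called 0. With WT replicates 1 and 2 left out, 6 of the 38 were called higher (median 1.03), against 6.4% of all genes. Without WT replicates 3, 4 and 5 the median was 0.33 with 0 called. Ubtf, the factor that binds ribosomal DNA for RNA polymerase I, was at 194, 223, 196, 91.4 and 190 CPM in Tumor and at 61.5, 97.1, 83.6, 80.8 and 33.1 CPM in WT. Tumor replicate 4 alone lay inside the WT range. Its log2 fold change was 1.33 ± 0.53 (adjusted p = 0.228, edgeR), that of the nucleolar chaperone gene Nolc1 1.25 ± 0.56 (adjusted p = 0.286) and that of Tcof1, a ribosomal DNA transcription cofactor, 0.88 ± 0.47 (adjusted p = 0.369).

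Of 20 genes of mTOR signalling and cap-dependent translation 0 were called (2 at an unadjusted p below 0.05), with a median of 0.57. DESeq2 and limma voom also called 0, and voom with quality weights 1. With WT replicates 1 and 2 left out, 4 of the 20 were called higher (median 1.23), against 6.4% of all genes. The median was 1.02 without WT replicate 2 alone and 0.033 without WT replicates 3, 4 and 5. Eif4e, which binds the messenger RNA cap, was at 42.1, 85.8, 152, 144 and 43.8 CPM in Tumor and at 30.4, 53.1, 32.4, 9.46 and 19.5 CPM in WT. Myc, a transcription factor that drives ribosome production, was at 25.9, 35.6, 47.9, 35.5 and 38.3 CPM in Tumor and at 11.7, 16.7, 24.4, 1.09 and 3.63 CPM in WT. The groups overlapped for Eif4e and not for Myc. The log2 fold changes were 1.69 ± 0.57 and 1.67 ± 0.68, with adjusted p = 0.155 and 0.237 (edgeR, Benjamini-Hochberg), and 1.30 ± 0.69 (adjusted p = 0.360) for the helicase gene Eif4a1.

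Mitochondrial ribosomal proteins, which serve a separate ribosome, gave a median of 0.30 over 77 tested genes of 78, with 0 called by edgeR, DESeq2 or either voom fit. The median was 0.89 without WT replicate 2, and 0.054, 0.12 and 0.060 without WT replicates 3, 4 and 5 in turn. Without WT replicates 1 and 2 together it was 1.74, with 20 of the 77 called higher, against 6.4% of all genes. Without WT replicates 3, 4 and 5 together it was -0.64, with 2 of the 77 called lower, against 2.09% of all genes. By edgeR on all libraries 1 was at an unadjusted p below 0.05. That gene was Mrps18b, at -2.02 ± 0.92 on the log2 scale (adjusted p = 0.288, edgeR). Mrpl33 and Mrpl13 were at 1.19 ± 0.61 and 0.97 ± 0.55 (adjusted p = 0.347 and 0.391). All values in the last 4 paragraphs are on TMM scaling; the values of the genes named there, Fau and Rack1 aside, were negative on the T cell scaling, from -5.21 for Mrps18b to -1.73 for Myc.

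Among 13578 other genes averaging 10 CPM or more, the pattern most like the summed ribosomal protein level over the 10 libraries was that of Rpl21-ps15, a pseudogene row, with a Spearman rho of 1.0. It was followed by Jun, Pfdn6, Rpl17-ps10 and Swi5, tied at 0.99 (the correlations are over 10 libraries and describe them). Jun, an immediate early transcription factor gene, was at 180 to 341 CPM in Tumor and at 183, 545, 21.1, 45.5 and 11.8 CPM in WT. Pfdn6, a subunit of the prefoldin chaperone, was at 46.1 to 99.7 CPM in Tumor and at 50.3, 84.0, 27.7, 28.0 and 1.81 CPM in WT. Both shared with the members the high value in WT replicate 2 and the low one in WT replicate 5.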

How the data were processed

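RNA of 10 mouse Treg libraries (5 Tumor, 5 WT, grouped and numbered by their titles) was analysed from read counts per gene. The authors deposited whole-number counts, not normalized, for 54532 genes with names, coordinates and lengths. Per the submitters' processing notes the build was mm10 and featureCounts 1.5.0-p3 and HISAT2 2.0.5 were among the tools. Annotation version, strand setting and treatment of multi-mapped reads are not given in the sources used here, so reads of overlapping genes and near-identical copies cannot be told apart. The single-library files (10 of 10) held the same values as the series table. No libraries were duplicates (the smallest chi-square per gene of 45 pairs was 28.2).

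Genes were filtered with filterByExpr (minimum count 10), scaled by TMM and tested over the whole table with edgeR 4.0.16 (robust quasi-likelihood F test, R 4.3.3). p-values were adjusted by Benjamini-Hochberg over all 21414 genes tested, and adjusted p below 0.05 was called. Standard errors are the log2 fold change over the square root of F. CPM are TMM scaled unless given per library total. The biological coefficient of variation was 86.1%, and counting error is small beside it for all but the lowest members. Scripts were tested on simulated counts. Alternatives were RLE, upper-quartile, library-total, T cell gene and ribosomal protein scaling, DESeq2 1.42.0, limma 3.58.1 voom, other filters, a replicate block and left-out libraries.

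The members, gene lists and left-out sets were chosen with earlier results of these data known. Genes were named by rule: called members, the 4 largest and 4 smallest fold changes, the 5 highest and 3 lowest levels per kilobase, stalk, reference and paralog genes, the 3 smallest p of each other list, and the 3 genes most like the summed level. Rpl7a, Rpl15, Rpl23a, Rps9, Rpl32, Fau, Rack1, Swi5 and Rpsa-ps2 were added after their values were seen. Copies and overlaps were counted on GENCODE M21, and start windows come from RefSeq (GRCm38.p6). Same-numbered libraries did not deviate together (correlations -0.126 to 0.038 over 5 numbers, none matching best with its own number). With 5 numbers this cannot show whether libraries of the same number were handled together, and the main fit did not use the numbers.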

Additional observations from a re-analysis of the deposited data

Results flagged for a closer look

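In 9 of 96 groups of 5 libraries examined, 1 library stood far from the other 4 (its gap to the nearest, over the range, exceeded the limit for 5 values); chance gives about 1 in 20 such groups, and genes of 1 family share their libraries. Of these, 6 concerned a low value in Tumor replicate 4. There Rpsa was at 1284 CPM (the next lowest Tumor library at 4210), Rplp1 at 1139 (2715), Rpl36 at 363.9 (942.8), Rps15 at 560 (1217), Rplp2 at 470.2 (1092) and Ubtf at 91.41 (190.4). Tumor replicate 4 also held the smallest ribosomal protein share of the Tumor libraries, 4.63%. Tumor replicate 3 was high for the paralogs Rpl3l, at 1.136 CPM against 0.281 in the next library, and Rpl39l, at 7.142 against 0.71, which are 7 and 44 counts. WT replicate 5 was high for Rps10, at 72.57 CPM against 4.446 in the next WT library. Leaving out WT replicate 5 moved the log2 fold change of Rps10 from -2.64 to -0.0072.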

How the results depend on the processing

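No member was called under RLE, upper-quartile or library-total scaling, limma voom, the other filters or protein coding genes alone, settings in which 0.934% to 2.12% of all genes were called higher. Scaled to T cell genes, 54 members were called lower and their median was -2.69; 1 was called lower with ribosomal protein scaling and 1 without WT replicates 3, 4 and 5. DESeq2 and voom with quality weights each called 1 higher, and 18 were called higher without WT replicates 1 and 2. Leaving out single libraries, 0 to 1 were called higher (1 without WT replicate 2) and the median ranged from 0.57 (without WT replicate 5) to 1.44 (without WT replicate 2). With a replicate block 0 members were called, their median was 1.35, and 141 genes of all were called against 340. Of the 5 numbers 0 matched best with itself, which cannot show whether the numbers pair the libraries. The cause of each change was not tested.

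Log2 fold changes turned sign as follows. T cell scaling: Rpl13a -1.43, Rpl30 -1.81, Rps12 -2.07, Rpsa -1.91, Rplp1 -2.53, Rpl41 -2.92, Rpl36 -2.72, Rps15 -2.26, Rps27 -2.70, Rpl7l1 -2.97, Rplp0 -2.86, Rplp2 -2.38, Rps6 -2.74, Rps18 -3.15, Rps27rt -2.76, Rps19bp1 -2.87, Rpl3 -2.57, Rpl10 -2.84, Rpl22 -2.50, Rpl36a -2.98, Rpl39 -2.77, Rpl7 -2.70, Rps4x -2.43, Hnrnpa1 -2.13, Eif3e -2.27, Tpt1 -2.25, Ubtf -1.94, Nolc1 -2.20, Tcof1 -2.45, Eif4e -1.94, Myc -1.73, Eif4a1 -2.27, Mrpl33 -2.55, Mrpl13 -2.60, Rpl21-ps15 -2.60, Jun -2.76, Pfdn6 -2.54. Ribosomal protein scaling: Rpsa -0.23, Rplp1 -0.20, Rpl36 -0.54, Rps15 -0.019, Rps27 -0.15, Rpl7l1 -1.06, Rplp2 -0.72, Rps18 -0.50, Rps27rt -0.015, Rpl22 -0.12, Rpl36a -0.65, Rpl39 -0.17, Ubtf -0.37, Nolc1 -0.21, Tcof1 -1.02, Mrpl13 -0.22. Without WT replicates 3, 4 and 5: Rpl24 0.11, Rpl41 -0.30, Rpl7l1 -0.085, Rplp0 -0.39, Rps6 -0.27, Rps18 -0.41, Rps19bp1 -0.13, Rpl10 -0.32, Rpl36a -0.20, Rpl7 -0.16, Rpl21-ps15 -0.00086, Jun -0.47. Rps27l and Rpl22l1 turned to 1.43 and 1.10 under voom, 1.62 and 1.41 with quality weights, 1.36 and 1.16 with the replicate block, and 2.90 and 2.42 without WT replicates 1 and 2. With single libraries left out, Rpl22l1 ranged from -0.39 to 0.92, Rps27l from -0.53 to 0.49 and Rpl24 from -0.60 to 0.074.

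Depth limited the low members: WT replicate 5 had a median of 106.5 counts per member and 4 core members under 10 counts.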
